A study of Mus musculus with 14 samples.

Results

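The genes described here are 45 listed genes of ribosome biogenesis and MYC-driven growth, out of 23141 genes with a value in the series. They were listed by name and function, with earlier results of these data known. The list holds the MYC factors Myc and Mycn and 39 genes that act in the nucleolus or on RNA polymerase I. It also holds 4 genes of polyamine synthesis and translation that MYC is reported to control. The value of a gene in an array was the median of the probesets that name that gene alone, on the log2 scale, so that a difference of 1 is a doubling. All 45 genes were on the array, and all 45 were among the 17356 genes that remained after the 25% of genes with the lowest mean level had been left out as dim.

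The samples were neural stem cell cultures from the subventricular zone, a germinal layer of the brain, of mice at postnatal day 4. Cic encodes Capicua, a transcriptional repressor that is inactivated downstream of receptor tyrosine kinases such as the EGF receptor. Cultures were established from individual animals, 4 wild type (Cic+/+, clones 1 to 4) and 3 with floxed Cic alleles labelled as a conditional knockout (Cic-/-, clones 5 to 7), and the design text gives adenoviral Cre transduction after the cultures of both genotypes. Each culture was then kept for 24 h in proliferation medium with EGF or in the same medium without it, and total RNA of all 14 cultures was hybridised to Affymetrix arrays. The groups are therefore Cic+/+ with EGF (n = 4), Cic+/+ without EGF (n = 4), Cic-/- with EGF (n = 3) and Cic-/- without EGF (n = 3). Cic was deleted in culture and not by a Cre driver in the animal, and each genotype is represented by a small number of animals, whose number limits the precision of every value below.

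Ribosome production starts in the nucleolus, where RNA polymerase I transcribes the precursor of the large ribosomal RNAs. Small nucleolar ribonucleoproteins then modify that precursor, and the small subunit processome and the large subunit assembly factors cut and fold it. Helicases and chaperones also take part. MYC, with its partner MAX, binds the E-box CACGTG and raises transcription of many of these genes, which makes them a common readout of growth signalling, and EGF is the mitogen that keeps neural stem cells of this region dividing in culture.

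The Cic gene itself checked the labels. Its level was 9.18 to 9.69 in the 8 Cic+/+ arrays and 7.04 to 7.67 in the 6 Cic-/- arrays, a difference of -1.97 ± 0.15 (SE) with EGF and -2.16 ± 0.15 without it in limma (adjusted p = 2.18e-05 and 9.44e-06). All 8 markers of neural stem cells and radial glia were above the dim limit. So were the markers of oligodendrocyte progenitors (4 of 4), astrocytes (5 of 5) and neurons (5 of 5). The markers of myelinating oligodendrocytes (4 of 4 on the array) and ependyma (3 of 3) were above it too. Of the others, 3 of 5 microglial, 3 of 4 endothelial and 2 of 4 fibroblast markers were. Only the 25% of genes with the lowest mean level lay under this limit, so these counts do not tell cell types apart. Clone 4 differed from the other clones in Xist (3.83 and 4.73 against 11.96 to 12.57) and was the only clone with high Y-linked transcripts. In bulk RNA of this kind, a change in the number of cells of a type and a change in RNA per cell cannot be told apart.

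Among the growth genes, clones 1 and 7 stood apart from the other clones when EGF was withheld. Relative to each gene's mean over the 14 arrays, the median of the 45 genes without EGF was 0.61 in clone 1 (Cic+/+) and 0.46 in clone 7 (Cic-/-), and between -0.71 and -0.14 in clones 2 to 6. Both clones are therefore named beside the results below, with values computed without each of them.

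Promoter sequences are shown first, because MYC binding and CIC binding are both read from short motifs. RefSeq windows of the mouse build GRCm38.p6, from 250 bases before to 50 bases after a transcript start, were at hand for 36 of the 45 genes. The letters CACGTG, which read the same on both strands, occurred in the windows of 8 of these 36 genes (22.2%), in those of 10.7% of 13478 tested genes with a window and in those of 8.09% of all 27025 genes with one. The following 30-base stretches hold each of these 8 E-boxes, in capitals, read 5′ to 3′ on the strand of the gene.
Eif4a1, chr11:69672595-69672624, minus strand: cgatcgcctccgCACGTGtaaaggtgctgg
Grwd1, chr7:45830740-45830769, minus strand: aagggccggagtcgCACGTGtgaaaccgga
Imp4, chr1:34439696-34439725, plus strand: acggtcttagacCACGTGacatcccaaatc
Mybbp1a, chr11:72441347-72441376, plus strand: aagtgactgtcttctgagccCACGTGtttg
Nop2, chr6:125131811-125131840, plus strand: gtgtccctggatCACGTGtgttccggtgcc
Pes1, chr11:3963965-3963994, plus strand: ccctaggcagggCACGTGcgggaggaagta
Utp20, chr10:88826765-88826794, minus strand: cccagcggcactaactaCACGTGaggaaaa
Wdr43, chr17:71616220-71616249, plus strand: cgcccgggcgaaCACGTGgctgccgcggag
The E-box lay before the transcript start in Eif4a1, Imp4 and Nop2 and after it in Grwd1, Mybbp1a, Pes1, Utp20 and Wdr43, where it falls in the first transcribed bases. The octamers TGAATGAA and TCAATGAA, both reported as CIC binding motifs, were searched on both strands and did not occur in any of the 36 windows, against 1.18% and 0.571% of the tested genes. A match is a run of letters and not a site shown to be bound, and the absence of a match says only that those letters are not in this window. The EGF differences described below, averaged over both genotypes, had a median of 0.31 (-0.01 to 0.50) over the 8 genes with an E-box and of 0.39 (0.10 to 0.77) over the 28 without it. The ranges overlapped and no test was made.

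The 250 bases before the transcript start are shown whole for 2 genes. Rrp1b had the largest averaged EGF difference of the 45, and the window of Nop2 holds an E-box in capitals close to the start. Both are on the plus strand of GRCm38.p6. The Rrp1b stretch is the first of 2 windows that RefSeq gives for this gene, and it ends where the gene's annotated start lies.
Rrp1b, chr17:32035912-32036161: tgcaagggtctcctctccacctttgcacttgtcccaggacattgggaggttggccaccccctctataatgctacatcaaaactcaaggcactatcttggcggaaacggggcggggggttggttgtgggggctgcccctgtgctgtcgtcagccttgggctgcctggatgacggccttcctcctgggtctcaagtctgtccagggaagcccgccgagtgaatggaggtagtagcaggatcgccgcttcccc
Nop2, chr6:125131633-125131882: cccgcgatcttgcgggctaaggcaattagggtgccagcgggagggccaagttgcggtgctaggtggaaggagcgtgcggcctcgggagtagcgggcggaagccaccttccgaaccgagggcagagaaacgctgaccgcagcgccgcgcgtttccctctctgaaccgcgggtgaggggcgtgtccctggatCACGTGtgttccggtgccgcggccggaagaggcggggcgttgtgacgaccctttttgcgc
That Rrp1b stretch holds no CACGTG. The Nop2 stretch holds 1, whose first base lies 60 bases before the start.

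With EGF the growth genes were higher than without it in most clones, by a modest amount, and hardly any single gene passed the test. Over both genotypes, 43 of the 45 genes had a positive EGF difference and their median was 0.39, a 1.31-fold difference. Of all tested genes 50.9% were positive, and the median of all was 0.00. Because the 45 were listed with earlier results of these data known, these shares describe the list and do not test it. A single gene, Rrp1b, passed at an adjusted p under 0.05 in limma, where 3.91% of all tested genes passed and 1.64% passed as higher with EGF. At an unadjusted p under 0.05, 8 of the 45 were higher and 0 lower, against 7.89% of all tested genes higher and 10.1% lower.

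In each genotype by itself most differences were positive too. In Cic+/+ 42 of 45 differences were positive (49.6% of all tested genes), with a median of 0.33 (1.26-fold) and a range from -0.07 (Rrs1) to 0.91 (Rrp1b). In Cic-/- 42 of 45 were positive (51.1% of all tested genes), with a median of 0.40 (1.32-fold) and a range from -0.08 (Pes1) to 0.70 (Grwd1). None of the 45 passed limma in either genotype, where 0.899% and 0.19% of all tested genes did, and at an unadjusted p under 0.05 the counts were 5 and 1, all higher with EGF, against 5.23% and 4.78% of all tested genes higher and 7.23% and 5.02% lower. The 95% interval of a single gene reached a median of 0.69 to either side in Cic+/+ and 0.80 in Cic-/-, wider than the median difference itself. These intervals leave out the pairing by clone, which is described below.

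Most individual probesets pointed the same way as the gene values, which are medians of these probesets, so they give no separate support. Of 702 probesets for the 45 genes, 628 (89.5%) were higher with EGF when averaged over genotypes, with 2 (Fbl) to 51 (Utp20) probesets per gene. Probesets of a gene share their RNA and are not replicates, and the share over all probesets of the array was not computed.

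The EGF difference was not alike in all clones. Its median over the 45 genes was -0.08 in clone 1, 0.43 in clone 2, 0.45 in clone 3 and 0.60 in clone 4, all Cic+/+. In the Cic-/- clones it was 0.23 in clone 5, 0.92 in clone 6 and 0.03 in clone 7. Each genotype thus held a clone with a median near 0, and positive genes numbered 16 of 45 in clone 1 and 24 of 45 in clone 7, against 32 to 44 in the other 5 clones. Leaving out clone 1 raised the Cic+/+ median from 0.33 to 0.51. In Cic-/- the median moved from 0.40 to 0.60 without clone 7 and to 0.15 without clone 6.

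**Figure D1:**
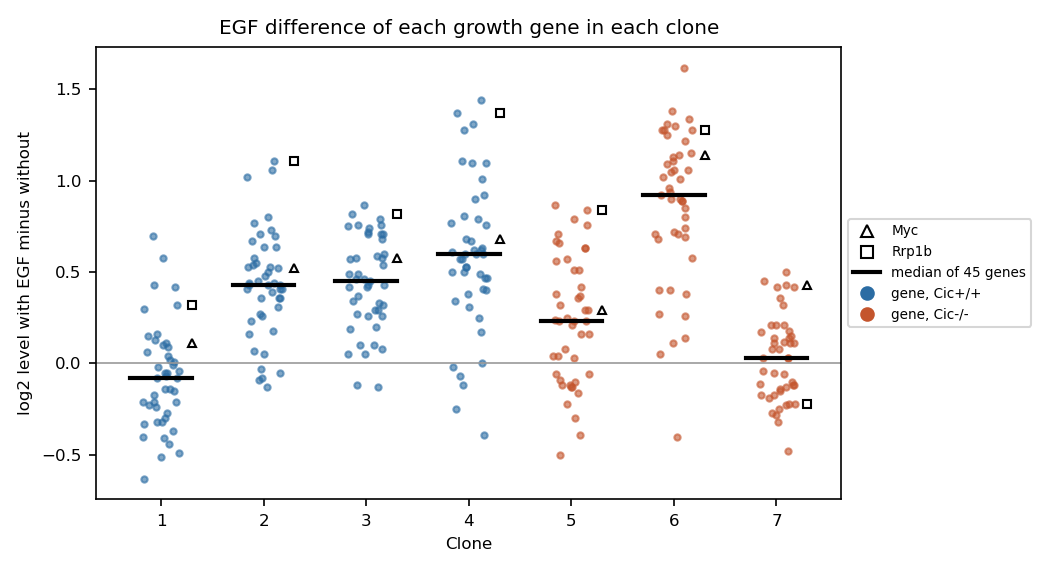
EGF difference (log2 level with EGF minus without) of each of the 45 genes in each clone, with 1 point per gene, black bars at the median of the 45 genes, and Myc (triangles) and Rrp1b (squares) set beside each cloud. The medians of clones 1 and 7 lie near 0 (-0.08 and 0.03), and those of clones 2 to 6 lie between 0.23 and 0.92.

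Clones 1 and 7, with median EGF differences near 0, had high levels already without EGF, while clone 5, whose median difference was 0.23, was low in both media. Without EGF, clone 1 had the highest of the 4 Cic+/+ values for 43 of the 45 genes, and clone 7 the highest of the 3 Cic-/- values for 42 of 45, where 29.6% and 37.5% of all tested genes were highest in those clones. With EGF, clone 1 was again highest in its group for 37 genes and clone 7 for 34, and clone 5 was lowest in its group for 40 genes, against 38.5% of all tested genes. As medians of the 45 genes, levels without and with EGF were 9.25 and 9.16 in clone 1 and 9.03 and 9.13 in clone 7. In clones 2, 3, 4 and 6 the same pair of medians ran from 8.36 to 8.98, from 8.02 to 8.54, from 7.94 to 8.65 and from 7.92 to 8.83. In clone 5 they were 7.97 without EGF and 8.06 with it.

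**Figure D2:**
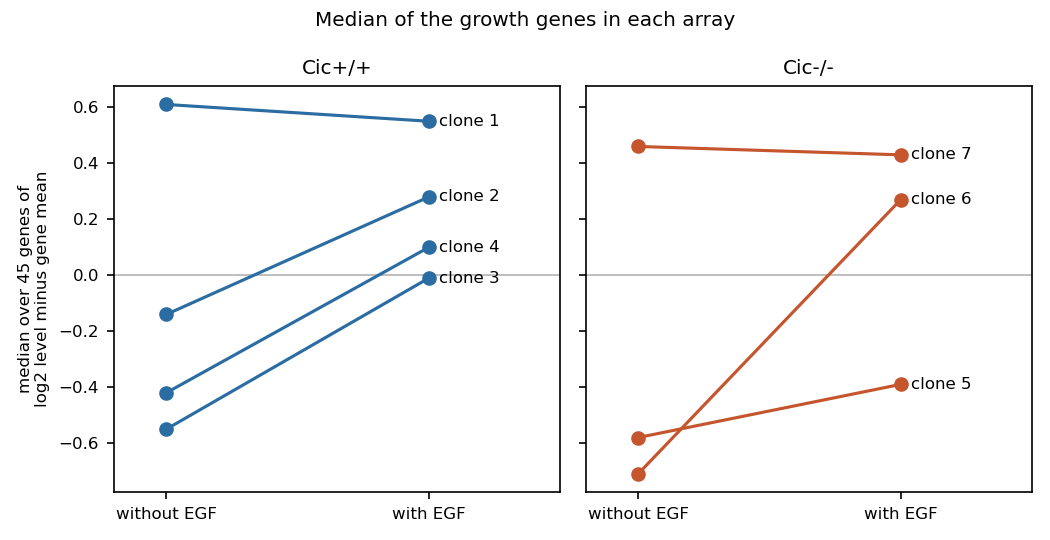
Median over the 45 genes of the log2 level relative to each gene's mean over 14 arrays, without and with EGF, with 1 line per clone. Clone 1 (0.61 without EGF) and clone 7 (0.46) start high and stay level, clone 6 starts lowest (-0.71) and reaches 0.27, and clone 5 remains below 0 (-0.39 with EGF).

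This spread between clones set the errors. The median SD of the 45 genes was 0.59 among Cic+/+ and 0.67 among Cic-/- cultures without EGF, against 0.25 for all tested genes in each of these groups. With EGF it was 0.29 in Cic+/+ and 0.49 in Cic-/-, against 0.21 and 0.24 for all tested genes. Growth genes therefore varied more between animals than a typical gene did, most of all in medium without EGF.

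Pairing the cultures by clone, as the labels allow, removes part of that spread and changed some calls. With clone as a random block, Rrp1b passed in Cic+/+ (adjusted p = 0.0317 in limma), and in the average over genotypes Rrp1b (0.0093), Myc (0.0142) and Eif4ebp1 (0.026) passed, where 5.16% and 11.5% of all tested genes passed. With clone as a fixed term, 10 of the 45 passed in the average, where 12.1% of all tested genes passed, all 10 higher with EGF: Dkc1, Eif4ebp1, Fbl, Grwd1, Myc, Polr1a, Rrp1b, Srm, Utp20 and Wdr12. A count of clones that needs no model gave 5 genes higher with EGF in all 7 clones, namely Myc, Fbl, Gar1, Utp20 and Wdr12, while 6.04% of all tested genes were, and 0 genes lower in all 7, while 7.43% of all tested genes were. By genotype, 13 of the 45 were higher in all 4 Cic+/+ clones and 18 in all 3 Cic-/- clones, against 13.8% and 18.2% of all tested genes. Values with EGF lay above all values without it for Myc, Fbl and Rrp1b in Cic+/+ and for Eif4ebp1 in Cic-/-, as they did for 3.45% and 6.64% of all tested genes.

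**Figure D3:**
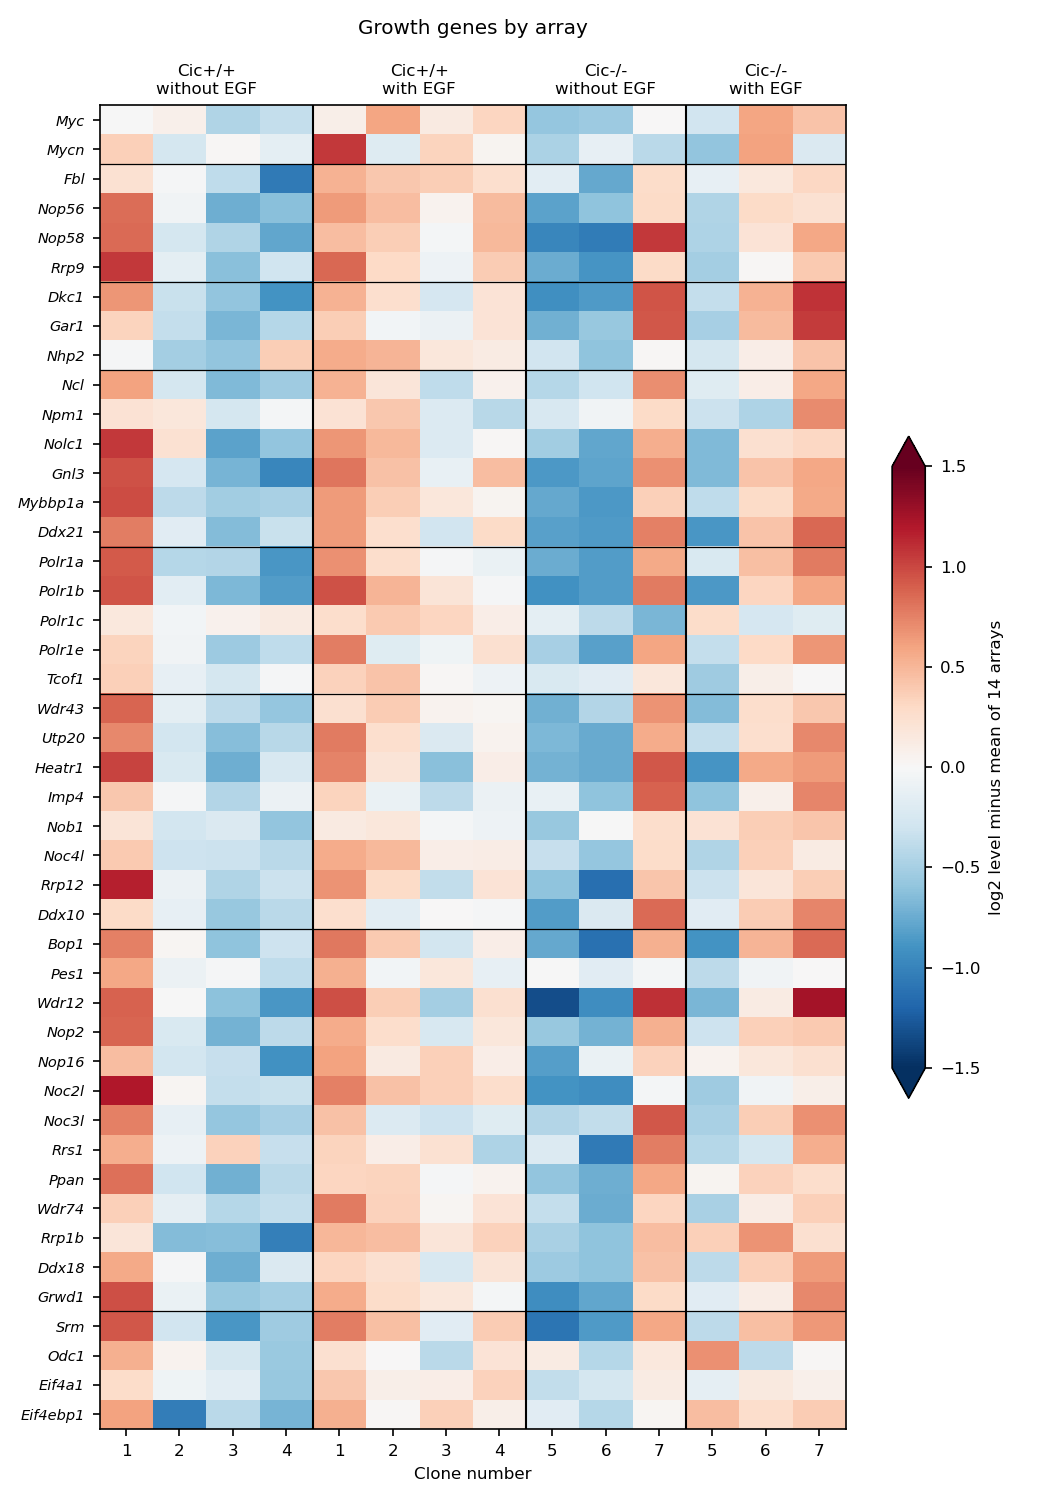
Log2 level of each of the 45 genes (rows, by role) relative to its mean over the 14 arrays, for each clone in each group (columns), in red above and blue below the mean. The columns of clone 1 and clone 7 without EGF are red for nearly every gene (43 and 41 of 45 above the mean), and those of clones 3 to 6 without EGF are blue, with 0 to 3 of 45 above it.

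Among the MYC factors, Myc, the transcription factor that drives growth and division, was higher with EGF in each of the 7 clones. Its levels without EGF were 9.53, 9.61, 9.09 and 9.18 in Cic+/+ (clones 1 to 4) and 8.96, 8.99 and 9.54 in Cic-/- (clones 5 to 7), and with EGF they were 9.63, 10.13, 9.67 and 9.86 and then 9.25, 10.13 and 9.97. In Cic+/+ the lowest value with EGF lay just above the highest without it, and in Cic-/- clone 5 with EGF lay below clone 7 without it. The EGF difference averaged over genotypes was 0.54 ± 0.16 (SE), 1.46-fold, with an adjusted p of 0.0776 in limma. By genotype it was 0.47 ± 0.21 in Cic+/+ and 0.62 ± 0.24 in Cic-/-.

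Mycn, the MYC family member known for its role in neural progenitors, was far more uneven. Its level with EGF was 6.86 in clone 1 and 6.40 in clone 6 but 5.21 to 6.14 in the other 5 clones, against 5.33 to 6.16 without EGF in all 7. It was higher with EGF in 6 of 7 clones, clone 5 excepted, and its averaged difference of 0.29 ± 0.21 did not pass (adjusted p = 0.525).

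**Figure D4:**
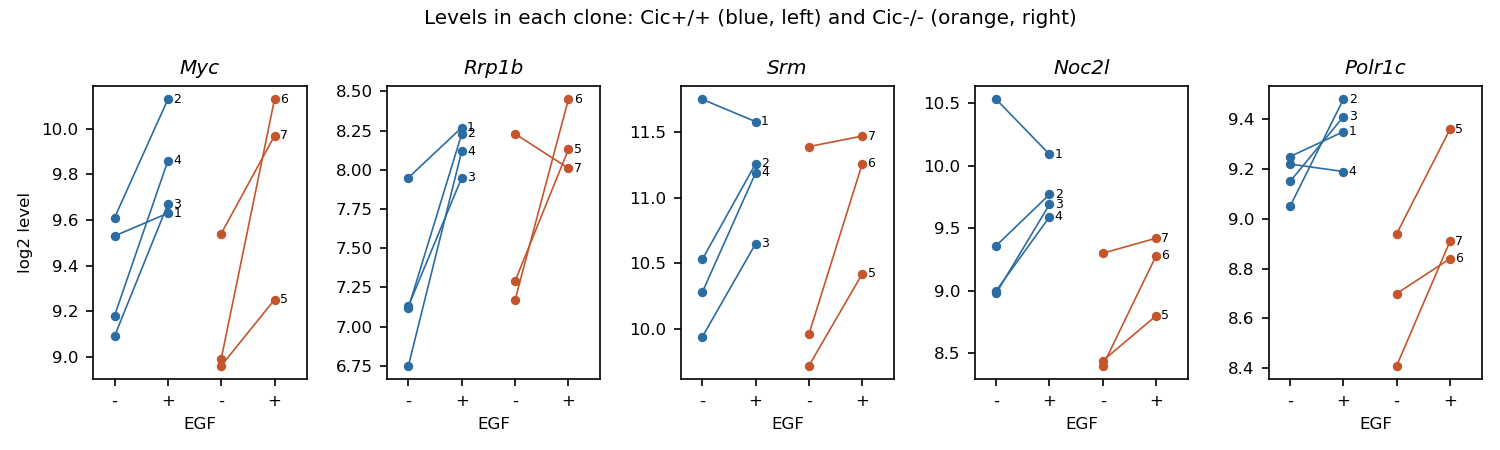
Log2 levels of Myc, Rrp1b, Srm, Noc2l and Polr1c in each clone without (-) and with (+) EGF, with 1 line per clone numbered at its right end and a separate vertical scale for each gene. Myc climbs in every clone, Rrp1b and Srm climb in 6 of 7 each, and the Cic-/- lines of Noc2l and Polr1c lie mostly under the Cic+/+ lines.

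The box C/D ribonucleoproteins, which guide 2′-O-methylation of ribosomal RNA, were represented by Fbl, Nop56, Nop58 and Rrp9. Fbl, the methyltransferase fibrillarin, was measured by 2 probesets and read 8.17, 7.92, 7.56 and 6.88 in clones 1 to 4 without EGF and 8.47, 8.35, 8.31 and 8.19 with it. In clones 5 to 7 it read 7.78, 7.18 and 8.22 without EGF and 7.82, 8.10 and 8.25 with it. The Cic+/+ values did not overlap between media, the Cic-/- values did, and Fbl was higher with EGF in all 7 clones (0.51 ± 0.20 averaged, adjusted p = 0.178).

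Nop56, a core scaffold of the particle, ran from 8.40 to 9.98 without EGF and from 9.19 to 9.77 with it in Cic+/+, and from 8.33 to 9.43 and from 8.69 to 9.43 in Cic-/-. Its difference was 0.48 ± 0.25 averaged over genotypes, negative in clones 1 and 7 (-0.21 and -0.06) and positive in the other 5. Its partner Nop58 showed the widest contrast between clones. The Nop58 difference was -0.37 in clone 1 and -0.48 in clone 7 but 1.28 in clone 4 and 1.25 in clone 6 (0.46 ± 0.33 averaged), from levels without EGF of 9.01 and 9.22 in clones 1 and 7 and of 7.12 to 7.90 in the rest. Rrp9, which joins the U3 particle of the same family, differed by 0.39 ± 0.27, and its level without EGF was 8.66 in clone 1, 7.89 in clone 7 and 6.72 to 7.46 in the others.

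The box H/ACA ribonucleoproteins guide pseudouridylation. Dkc1, their pseudouridine synthase, read 9.50, 8.50, 8.24 and 7.94 without EGF and 9.36, 9.08, 8.58 and 9.04 with it in clones 1 to 4. In clones 5 to 7 it read 7.91, 7.98 and 9.78 without EGF and 8.47, 9.36 and 9.92 with it. Clones 1 and 7 were again the high ones without EGF, and the difference was 0.58 ± 0.33 (adjusted p = 0.385), with 1.38 in clone 6 the largest of any clone.

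The small core proteins Gar1 and Nhp2 behaved less alike. Gar1 was higher with EGF in all 7 clones, by 0.02 in clone 1 to 1.06 in clone 6 (0.43 ± 0.28 averaged). Nhp2 differed by 0.45 ± 0.17 (adjusted p = 0.174), by as much as 0.58 in clone 1 and 1.02 in clone 2 but by -0.25 in clone 4, whose level of 9.10 was the highest of the Cic+/+ cultures without EGF. Clone 4 and not clone 1 was therefore the high clone for Nhp2.

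Of the 5 genes of RNA polymerase I and its loading, all had positive averaged differences and 0 passed. Polr1a, which encodes the largest subunit, read 9.71 in clone 1 and 7.92 to 8.36 in clones 2 to 4 without EGF, and 8.69 to 9.48 with it. In Cic-/- it read 8.05, 7.96 and 9.36 without EGF and 8.56, 9.24 and 9.57 with it, for a difference of 0.54 ± 0.29 over both genotypes (adjusted p = 0.365). Only clone 1 went down, by -0.23.

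Polr1b, the second largest subunit, had levels without EGF of 8.93 in clone 1 and 8.76 in clone 7 but 7.08 to 7.82 in the rest, and a difference of 0.46 ± 0.34. Polr1e, a subunit specific to this polymerase, differed by 0.40 ± 0.24 and was lower with EGF in clone 2 alone (-0.13). Tcof1, the treacle scaffold that recruits the polymerase, differed by 0.06 ± 0.14, from -0.30 in clone 5 to 0.55 in clone 2.

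Polr1c, a subunit shared by RNA polymerases I and III, did not follow the others. Its levels without EGF were 9.25, 9.05, 9.15 and 9.22 in Cic+/+ (clones 1 to 4) and 8.94, 8.70 and 8.41 in Cic-/- (clones 5 to 7), and with EGF 9.35, 9.48, 9.41 and 9.19 and then 9.36, 8.84 and 8.91. Clone 7 was the lowest of all without EGF, where it was high for 42 other genes. The EGF difference was 0.27 ± 0.11 (adjusted p = 0.215).

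The nucleolar chaperones and scaffolds were Ncl, Npm1, Nolc1, Gnl3, Mybbp1a and Ddx21, and 0 of the 6 was higher with EGF in clone 1. Mybbp1a, a nucleolar protein tied to ribosomal RNA transcription, read 10.63 in clone 1 and 9.14 to 9.26 in clones 2 to 4 without EGF, against 9.70 to 10.30 with it. In Cic-/- it read 8.89, 8.80 and 10.01 without EGF and 9.27, 9.94 and 10.22 with it (0.49 ± 0.26 averaged, adjusted p = 0.359). Gnl3, nucleostemin, a nucleolar GTPase abundant in stem cells, differed by 0.54 ± 0.33, by 1.44 in clone 4 and 1.22 in clone 6 but by -0.15 and -0.10 in clones 1 and 7.

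Ddx21, a helicase of ribosomal RNA transcription and processing, differed by 0.38 ± 0.33, and its 1.28 in clone 6 exceeded the 0.62 or less of every other clone. Ncl, nucleolin, differed by 0.24 ± 0.24 and ran from 9.39 to 10.66 in Cic+/+ and from 9.63 to 10.75 in Cic-/- without EGF. Nolc1, a chaperone of the small nucleolar ribonucleoproteins, differed by 0.24 ± 0.30, and Npm1, the abundant histone and ribosome chaperone nucleophosmin, by -0.03 ± 0.19. Npm1 was the lowest of the 45, and it was lower with EGF in clones 1, 4, 5 and 6.

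The 8 genes of small subunit processing had a median EGF difference of 0.31, and 7 of 8 were positive. Nob1, the endonuclease that makes the final cut of the small subunit RNA, read 9.41, 8.95, 9.00 and 8.63 without EGF and 9.36, 9.39, 9.19 and 9.14 with it in clones 1 to 4. In clones 5 to 7 it read 8.65, 9.21 and 9.49 without EGF and 9.44, 9.59 and 9.64 with it. It was among the least scattered of the 45 (0.35 ± 0.14, adjusted p = 0.202), and clone 1 alone did not have a positive difference (-0.05).

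Utp20, a large scaffold of the processome, was higher with EGF in all 7 clones, by 0.06 in clone 1 to 1.01 in clone 6, and all 51 of its probesets had a positive averaged difference (0.43 ± 0.27 for the gene). Noc4l, which acts in small subunit export, differed by 0.35 ± 0.18 and was lower with EGF in clones 5 and 7. Ddx10, a helicase of the processome, differed by 0.30 ± 0.23. Imp4, which brings the U3 RNA to its target, differed by -0.01 ± 0.25 and was lower with EGF in 4 clones (1, 2, 5 and 7) and level in clone 4. Heatr1, Wdr43 and Rrp12 differed by 0.22, 0.20 and 0.32, each lower with EGF in clones 1 and 7, and Heatr1 in clone 5 too.

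All 13 large subunit assembly genes had positive averaged differences, with a median of 0.39. Rrp1b, a nucleolar protein of large subunit maturation, read 7.95, 7.12, 7.13 and 6.75 without EGF and 8.27, 8.23, 7.95 and 8.12 with it in clones 1 to 4. In clones 5 to 7 it read 7.29, 7.17 and 8.23 without EGF and 8.13, 8.45 and 8.01 with it. The highest Cic+/+ value without EGF (7.95, clone 1) lay just under the lowest with it (7.95, clone 3, equal after rounding), and among Cic-/- clone 7 was the exception, lower with EGF by 0.22. Rrp1b rose by 0.77 ± 0.20 (95% interval 0.35 to 1.19), 1.71-fold, higher in 6 of 7 clones (limma adjusted p = 0.0426). That call was lost without any of clones 2 to 6 (adjusted p 0.109 to 0.245), and with the brightest probeset or no filter on dim genes (0.0649 and 0.0518), and it held without clone 1 (0.0177) or clone 7 (0.014).

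Grwd1, a chaperone of a ribosomal protein, differed by 0.50 ± 0.26 and was higher in 6 of 7 clones, with -0.41 in clone 1. Its levels without EGF were 8.58 in clone 1, 7.90 in clone 7 and 6.68 to 7.51 in the others, and with EGF they ran from 7.44 to 8.34 in all 7. Nop16, a late-acting assembly factor, read 10.54, 9.81, 9.73 and 9.17 without EGF and 10.68, 10.22, 10.44 and 10.18 with it in clones 1 to 4, and 9.26, 9.98 and 10.43 against 10.13, 10.25 and 10.32 in clones 5 to 7. Its difference was 0.46 ± 0.21 (adjusted p = 0.262), negative in clone 7 alone. Wdr74 differed by 0.37 ± 0.20, negative in clone 5 alone.

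The PeBoW complex, formed by Pes1, Bop1 and Wdr12 for processing of the large subunit RNA, was not moved evenly. Wdr12 differed by 0.52 ± 0.42, Bop1 by 0.44 ± 0.33 and Pes1 by 0.01 ± 0.15. Among the 45 genes, Bop1 in clone 6 had the largest EGF difference in any clone, 1.62, from 7.16 to 8.78. Pes1 in the same clone went from 8.86 to 8.98. Of the remaining genes, Ppan (0.40), Noc2l (0.39), Nop2 (0.34) and Ddx18 (0.34) had differences close to the median, and Noc3l (0.10) and Rrs1 (0.02) had small ones.

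The polyamine and translation genes had a median difference of 0.44 over 4 genes. Eif4ebp1, which encodes the translation inhibitor 4E-BP1, read 10.93, 9.29, 9.92 and 9.62 without EGF and 10.85, 10.34, 10.68 and 10.41 with it in clones 1 to 4. In clones 5 to 7 it read 10.15, 9.89 and 10.35 without EGF and 10.78, 10.59 and 10.70 with it. The Cic-/- values did not overlap between media, and the averaged difference was 0.60 ± 0.21 (1.51-fold, adjusted p = 0.132), with clone 1 alone negative (-0.08).

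Srm, spermidine synthase, had the second largest averaged difference, 0.62 ± 0.32 (1.54-fold, adjusted p = 0.327). It read 11.75, 10.53, 9.94 and 10.28 without EGF and 11.58, 11.26, 10.65 and 11.19 with it in clones 1 to 4, and 9.72, 9.96 and 11.39 against 10.42, 11.26 and 11.47 in clones 5 to 7. Eif4a1, the helicase of translation initiation, differed by 0.28 ± 0.13 (adjusted p = 0.286) and was higher in 6 of 7 clones. Odc1, ornithine decarboxylase, the rate-limiting enzyme of polyamine synthesis and a classical MYC target, differed by 0.11 ± 0.20 and was higher in clones 4 and 5 (0.76 and 0.56) and near or below 0 in the other 5.

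The second comparison sets the genotypes against each other in the same medium. Here the 45 genes differed little and 0 passed in limma in either medium, where 0.317% of all tested genes passed with EGF and 0.553% without it. With EGF 30 of 45 were lower and 15 higher in Cic-/- (52.7% of all tested genes were higher), with a median of -0.10 and a range from -0.62 (Noc2l) to 0.29 (Nob1 and Ddx10), and at an unadjusted p under 0.05 the count was 0 in either direction, against 5.1% of all tested genes higher and 5.51% lower. Without EGF 33 of 45 were lower and 12 higher in Cic-/- (49.5% of all tested genes were higher), with a median of -0.12 and a range from -0.76 (Noc2l) to 0.33 (Rrp1b), and 2 genes, Polr1c and Noc2l, were lower at an unadjusted p under 0.05, as were 5.85% of all tested genes, and 0 were higher, against 4.97%. The Cic+/+ arrays serve in both the EGF and the genotype comparisons.

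The sign of these medians rested on single clones. With EGF the median of -0.10 became 0.04 without clone 1 and 0.12 without clone 5, and it became -0.28 without clone 7. Without EGF the median of -0.12 became 0.12 without clone 1, 0.05 without clone 5 and 0.07 without clone 6, and -0.50 without clone 7. A common direction of the growth genes between genotypes therefore did not hold up against the spread between animals. The intervals were wide, reaching a median of 0.75 to either side of a gene's difference, and they lay within a doubling in either direction for 28 genes with EGF and 27 without it, so that larger genotype differences remain possible for the other genes.

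**Figure D5:**
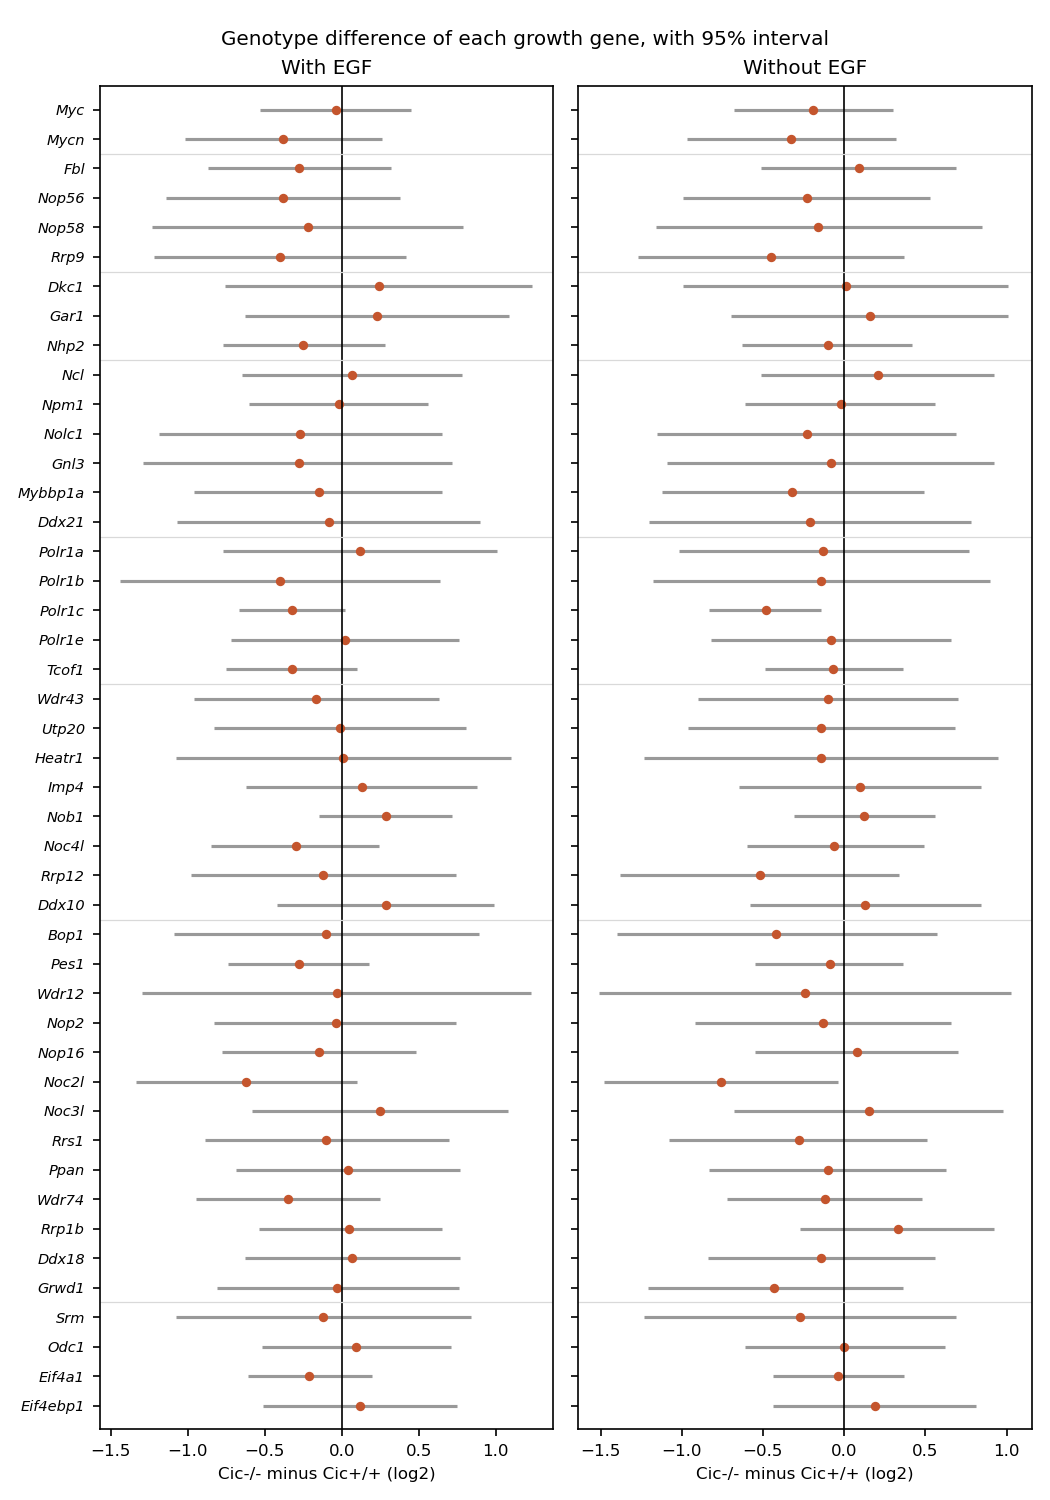
Genotype difference (Cic-/- minus Cic+/+, log2) of each of the 45 genes with EGF (left) and without it (right), with points at the estimate and lines over the 95% interval from limma. Nearly every interval crosses 0, and Polr1c and Noc2l without EGF lie to the left of it before any adjustment.

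Polr1c and Noc2l had the smallest p in both media. Polr1c was lower in Cic-/- by -0.48 ± 0.16 without EGF (1.40-fold lower, adjusted p = 0.245), and every Cic-/- value lay below every Cic+/+ value (8.41 to 8.94 against 9.05 to 9.25), a separation seen in 5.19% of all tested genes. With EGF its difference was -0.32 ± 0.16 (adjusted p = 0.494), and clone 5 at 9.36 lay among the Cic+/+ values of 9.19 to 9.48. Of its 13 probesets, 10 were lower in Cic-/- without EGF and 12 with it.

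Noc2l, an assembly factor that also acts as an inhibitor of histone acetylation, read 10.09, 9.77, 9.69 and 9.59 in Cic+/+ and 8.80, 9.28 and 9.42 in Cic-/- with EGF, without overlap, as did 5.91% of all tested genes in this direction. Without EGF it read 10.53, 9.36, 8.98 and 9.00 in Cic+/+ and 8.44, 8.40 and 9.30 in Cic-/-, where clone 7 lay among the Cic+/+ values. The differences were -0.62 ± 0.34 with EGF (adjusted p = 0.543) and -0.76 ± 0.34 without it (adjusted p = 0.435). The high value of clone 1 is part of both.

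The next smallest p values were those of Tcof1 with EGF (-0.33 ± 0.20, adjusted p = 0.596) and Rrp12 without it (-0.52 ± 0.40, adjusted p = 0.704). Tcof1 with EGF read 7.89, 7.98, 7.57 and 7.47 in Cic+/+ and 7.02, 7.64 and 7.55 in Cic-/-. Rrp12 without EGF read 7.88, 6.63, 6.27 and 6.40 in Cic+/+ and 6.11, 5.59 and 7.13 in Cic-/-, and its difference turned to 0.28 when the brightest of its 27 probesets was used. Nob1 was the single gene with every Cic-/- value above every Cic+/+ value with EGF (9.44 to 9.64 against 9.14 to 9.39), where 5.81% of all tested genes were (0.29 ± 0.20, adjusted p = 0.658).

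Myc itself showed little genotype difference. It was -0.04 ± 0.23 with EGF (95% interval -0.53 to 0.45) and -0.19 ± 0.23 without it (-0.68 to 0.30). Mycn was -0.38 ± 0.30 and -0.33 ± 0.30.

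Whether EGF acted differently in the genotypes was tested by the interaction, the EGF difference in Cic-/- minus that in Cic+/+. Of the 45 genes, 0 passed in limma (0.00576% of all tested genes passed), 0 had an unadjusted p under 0.05 (1.78% of all tested genes did with a positive and 1.08% with a negative difference), and 27 of 45 were positive with a median of 0.09 (51.9% of all tested genes were positive). The EGF differences of the genotypes overlapped for every one of the 45, while 2.85% of all tested genes had every Cic-/- clone below every Cic+/+ clone and 3.41% every one above. The smallest p values belonged to Fbl (-0.37 ± 0.40) and Tcof1 (-0.26 ± 0.28), each with an adjusted p of 1. For Fbl the clone differences were 0.30, 0.43, 0.75 and 1.31 in Cic+/+ and 0.04, 0.92 and 0.03 in Cic-/-, which overlap. For Tcof1 they were -0.02, 0.55, 0.29 and -0.07 in Cic+/+ and -0.30, 0.26 and -0.17 in Cic-/-, which overlap too. The interval of a gene reached a median of 1.06 to either side, and it lay within a doubling in either direction for 11 of the 45 genes. These intervals leave out the pairing by clone. With clone as a random block the SE was 0.319 against 0.395 for Fbl and 0.227 against 0.282 for Tcof1.

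The growth genes varied together across the cultures. After the group means had been taken off, the correlation of each gene with the median of the other 44 over the 14 arrays had a median of 0.94, with 33 genes at 0.8 or more and 9 from 0.5 to 0.8. Mybbp1a, Noc3l, Polr1b and Utp20 had the highest value, 0.98, and Myc had 0.69. Values under 0.5 belonged to Polr1c (-0.47), Mycn (0.34) and Odc1 (0.37). Of all tested genes, 6.16% reached 0.8 with the same median. Clones 1 and 7 without EGF were the arrays farthest from 0 on this measure (0.82 and 0.78). With those 2 arrays dropped, 29 of the 33 genes, and no other of the 45, were at 0.8 or more, as were 4.06% of all tested genes. The group means still came from all 14 arrays, so the dropped arrays shaped the values that were left. That count therefore does not show whether the genes vary together apart from them. Arrays of a clone share an animal, so these correlations are a description.

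Further processome, large subunit assembly and ribosomal protein genes, from lists that hold none of the 45, were mostly higher with EGF too. Further RNA polymerase I genes were not, and the lists were not tested against the 45. Of all tested genes, 50.9% were positive in the averaged EGF difference, 1.64% passed as higher and 2.28% as lower. With clone as a random block, 4.96% passed as higher and 6.59% as lower. Of 38 further small subunit processome genes, 34 were positive in the averaged EGF difference with a median of 0.19, and 2 rose, Rrp7a (0.46 ± 0.12, adjusted p = 0.0426) and Emg1, the pseudouridine methyltransferase (0.46 ± 0.11, adjusted p = 0.0351), or 3 with clone as a random block, which adds Rrp36. Of 43 further large subunit assembly genes, 40 were positive with a median of 0.18, and 1 rose with or without the block, Wdr55 (0.60 ± 0.16, adjusted p = 0.0453). Of 32 cytosolic ribosomal protein genes listed, 26 had a value, and 21 of these were positive with a median of 0.17. None passed, or 1 with the block (Rpl19, 0.24 ± 0.09, limma adjusted p = 0.176, and 0.0484 with the block). The median level of these 26 genes was 6.68 to 7.29 per array, below the 7.92 to 9.25 of the 45. Probesets that name several genes were left out of these values.

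Of 26 further genes reported as MYC growth targets, 23 were positive with a median of 0.22 and 0 passed. At an unadjusted p under 0.05 in limma, 8 were higher, against 7.89% of all tested genes. With clone as a random block 4 passed, all higher, against 4.96% of all tested genes passing as higher. Among them was Ccnd2, a D-type cyclin (0.47 ± 0.14, limma adjusted p = 0.0676, and 0.014 with the block). Of the 12 further RNA polymerase I genes 5 were positive, with a median of -0.06. Of the 14 RNA polymerase III and tRNA synthesis genes 6 were positive, with a median of -0.04. In either list 0 passed, or 2 and 1 with the block. Of 10 partners and antagonists of MYC, 1 fell, Mycl, another family member (-0.83 ± 0.20, adjusted p = 0.0369), lower with EGF in all 7 clones, or 2 with the block, which adds Mnt, a repressor that pairs with MAX. Mycl levels without EGF were 6.47, 7.27, 6.86, 6.67, 6.99, 6.89 and 5.97 in clones 1 to 7. With EGF they were 6.08, 5.65, 6.47, 5.67, 6.27, 5.63 and 5.55, opposite in direction to Myc. Of 10 genes that brake growth on the mTORC1 side, 5 were positive and 0 passed, or 1 with the block (Sesn2, 0.55 ± 0.16, adjusted p = 0.0747, and 0.012 with the block).

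Between genotypes these lists held 0 passing genes in either medium. The smallest p belonged to Rps6, a small subunit ribosomal protein, at -2.25 ± 0.50 with EGF (adjusted p = 0.0908, and 0.0473 with the block) and -2.04 ± 0.50 without it (adjusted p = 0.0944). Its levels were 7.67 to 8.11 in the 8 Cic+/+ arrays but 5.41 and 5.70 in clone 5, 6.64 and 7.29 in clone 6 and 4.90 and 4.52 in clone 7. The Cic-/- clones were thus all lower and differed widely among themselves. The clone 7 values lay close to the dim limit of 4.40, and probesets that name several genes were not used.

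Lists of cell cycle and cell type markers give the state of the cultures beside the growth genes. Per clone, the median EGF difference of 19 DNA replication genes was 0.29, 0.73, 0.41 and 0.60 in Cic+/+ (clones 1 to 4) and -0.35, 0.80 and -0.08 in Cic-/- (clones 5 to 7), and that of 16 mitosis genes was 0.04, 0.82, 0.12 and 0.56 and then 0.20, -0.06 and -0.38. Of 8 neural stem cell markers 0 passed in the averaged EGF difference, with Nes, an intermediate filament of these cells, at 1.08 ± 0.30 (limma adjusted p = 0.0643, and 0.00761 with the block). Of 5 astrocyte markers the median EGF difference was -2.05, -2.01, -1.70 and -1.36 and then -0.98, -1.06 and -1.39, lower with EGF in every clone. The astrocyte markers Aqp4, Slc1a2 and S100b fell with EGF (3.99-fold, 3.16-fold and 3.20-fold, adjusted p = 0.000764, 0.0127 and 0.0138), and Gfap and Aldh1l1 did not pass. Clones 1 and 7, where the median EGF difference of the growth genes was near 0, did differ in these markers.

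Of 4 markers of myelinating oligodendrocytes the median EGF difference was -1.43, -1.27, -1.80 and -1.82 in Cic+/+ and 0.42, -0.06 and -0.26 in Cic-/-. In Cic+/+ 3 of the 4 fell with EGF, namely Mag (-2.43 ± 0.25, adjusted p = 0.000364), Mbp (-1.92 ± 0.30, 0.00733) and Cldn11 (-1.24 ± 0.24, 0.0254), and in Cic-/- 0 passed. The same 3 fell in Cic-/- against Cic+/+ without EGF (-2.57, -2.51 and -2.35 for Mag, Cldn11 and Mbp). Of 5 neuron markers 1 fell in the averaged EGF difference, Dcx (-1.98 ± 0.35, limma adjusted p = 0.00698). Of 4 markers of oligodendrocyte precursors 1 fell between genotypes, Pdgfra. Among the cultures with EGF it was lower in Cic-/- than in Cic+/+ (-2.61 ± 0.38, limma adjusted p = 0.00819). In the EGF difference within Cic-/- 0 of these 4 passed. The lists for microglia, endothelium, fibroblasts and ependyma held 0 genes that passed without the block for EGF or genotype, and with the block 3 genes rose with EGF: P2ry12 of microglia in the average, and the endothelial Pecam1 in Cic+/+ and Cdh5 in Cic-/-. The part of cell cycle or cell type in the growth gene values was not tested.

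Between genotypes, all 19 DNA replication and all 16 mitosis genes had lower values in Cic-/- with EGF, with medians of -0.76 and -0.95, and 1 of them fell, Nusap1 (-1.80 ± 0.29, adjusted p = 0.0145). That call was lost without clone 2, 3 or 4 (adjusted p 0.085, 0.0657 and 0.0704). Without EGF the medians were -0.48 and -0.49 and 0 passed. These medians rested partly on clone 5, and in a check added after seeing the data that left it out they were -0.34 and -0.58 with EGF and -0.19 and 0.00 without it, with 17 and 16 genes negative with EGF and 16 and 8 without it. Whether these lists differ from the growth genes between genotypes was not tested.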

How the data were processed

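The authors' deposited data are log2 probeset values of 14 arrays, made with RMA per the submitters' processing notes. For RMA the version, and for the array annotation the genome build, was not given in the sources used here. Array medians lay between 6.49 and 6.54 and correlations between arrays between 0.933 and 0.984. Scanner intensities and signal over background were not used here.

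Of 269751 probesets, 233753 named 1 gene, 5106 several and 30892 none. Of 23152 symbols, RefSeq (GRCm38.p6) held 20875 as such and 2208 as synonyms, which were renamed, and 69 stayed as on the array. A gene's value was the median of its probesets (median 8 per gene). Genes in the lowest 25% (mean log2 level under 4.40) were left out.

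The tests used limma (version 3.58.1, R 4.3.3) on 4 group means over 14 arrays, no block, 10 residual and 4.06 prior degrees of freedom, and Benjamini-Hochberg adjustment over 17356 genes. Passing means an adjusted p under 0.05, and "rose" and "fell" are used for passing genes. On simulated data, changes of 0.5, 1 and 2 (log2) were recovered in 7.46%, 62.7% and 98.5% of cases for the EGF effect in Cic+/+. The changed genes were drawn at random from all tested genes, not from the 45. In this comparison the median SE was 0.32 for the 45 and 0.18 for all tested genes. These rates are therefore not those of the growth genes.

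Both cultures of a clone come from 1 animal by the labels. Deviations from group means correlated within clones 1 to 7 at 0.473, 0.323, 0.459, 0.337, 0.584, 0.156 and 0.616, and the block correlation was 0.348. Alternatives were the mean or brightest probeset, 2 dim filters, a trended prior, 2 scalings, clone blocks, only the groups compared and each clone left out.

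The 45 genes and all lists were chosen with earlier results of these data known. Values in every array are given for Myc and Mycn, for up to 4 genes per role with the smallest p for EGF, and for the smallest p in the genotype and interaction tests. Some are given as ranges. From the other lists, passing genes or those with the smallest p are named. Promoters came from RefSeq, and figures were drawn with matplotlib 3.10.9 in Python 3.11.15 with pandas 2.3.3. The R package data.table (version 1.17.8) read the files.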

Additional observations from a re-analysis of the deposited data

Results flagged for a closer look

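In 5 of 138 groups of 4 Cic+/+ values examined, 1 value lay far from the other 3 (3.62%, where chance gives about 1 in 20), and each time it was clone 1. Without EGF, Mybbp1a read 10.63 in clone 1 against 9.14 to 9.26 in clones 2 to 4, and Noc4l read 8.83 against 8.04 to 8.13. With EGF, Noc3l read 8.95 in clone 1 against 8.21 to 8.33. The EGF difference of Wdr43 was -0.63 in clone 1 against 0.45 to 0.60, and that of Nop2 was -0.32 against 0.46 to 0.57. Groups of 3, as in Cic-/-, were not examined in this way.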

How the results depend on the processing

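The number of growth genes that passed depended on the pairing by clone. For the EGF effect in Cic+/+ it was 0, and 1 with clone as a random or as a fixed replicate block. For the EGF effect averaged over genotypes it was 1, and 0 with the brightest probeset, 0 without the dim filter, 3 with the random and 10 with the fixed replicate block, and 0 to 2 when each clone was left out (2 without clone 1, 1 without clone 7, 0 without any of the other 5). Over all genes that comparison called 679, against 2004 and 2100 with the random and fixed blocks. The counts for the other 4 comparisons stayed at 0 under every alternative run, and the block changed no other call among the 45. Medians of the 45 moved by less than 1 SD over clones in every alternative, though the genotype medians changed sign when clone 1, 5 or 6 was left out, as given above, and the interaction median of 0.09 ranged from -0.20 to 0.24. Rrp12 without EGF turned from -0.52 to 0.28 between genotypes with the brightest probeset. Odc1 for EGF (0.11) ranged from -0.002 without clone 4 to 0.19 without clone 7. The cause of these shifts was not tested. With 3 or 4 cultures per group, changes of 0.5 were mostly missed on simulated data, in genes drawn at random from all tested genes.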

Other observations

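Genes outside the lists followed the same division of the clones. The genes below were picked after their values had been seen, by their correlation with the median of the 45 growth genes across the 14 arrays once group means were taken off, and no test was made. Genes with little spread within groups and genes with only a provisional name had been left out first. Among the highest were Slc5a3, a myo-inositol transporter (0.98), Dnajc2, a ribosome-associated chaperone (0.98), Rpp40, a subunit of ribonuclease P (0.97), Atic, an enzyme of purine synthesis (0.97), and Dusp6, a phosphatase of ERK that is itself induced by ERK signalling (0.97). Dusp6 without EGF read 11.38 in clone 1 and 11.51 in clone 7 but 9.91 to 10.63 in clones 2 to 6. Slc5a3 without EGF read 12.20 and 12.04 in those clones and 10.17 to 10.51 in the others.

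The opposite pattern was seen, among other genes, in Etv4, an ETS factor known as a CIC target (-0.99). The clock output genes Per3 (-0.98) and Dbp (-0.97) shared it, as did Lifr, a receptor of the LIF family of cytokines (-0.96). Kcnn3 (-0.99), Pcmtd1 (-0.98) and Evi5l (-0.98) ranked between Etv4 and Per3, and further genes not named here ranked before Dbp and Lifr. Without EGF, Per3 read 6.03 in clone 1 and 6.69 in clone 7 but 8.02 to 8.68 in the others, and Dbp read 7.58 and 7.26 against 9.57 to 10.17. With EGF, clone 5, whose growth genes stayed low, read 8.38 for Per3 and 9.98 for Dbp, above the 6.11 to 7.25 and 7.29 to 9.27 of the other 6 clones. Arrays of a clone share an animal, and why these genes divide the clones alike was not tested.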
